A study of Mus musculus with 27 samples.

Results

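*Tdrd3*, with its known protein partners and its nearest coding neighbours on chromosome 14, was followed in RNA-seq of mouse embryonic fibroblasts (MEFs) that carry or lack the *Firre* long noncoding RNA locus. The group holds 7 genes of the 37310 in the count table, and all 7 were among the 15387 genes with enough counts to be tested. *Tdrd3* itself was chosen with its values in these libraries known, so its levels and differences are given as a description with no test. Of the other 6, *Top3b*, *Fmr1*, *Fxr1* and *Fxr2* were chosen by what their proteins bind, and *Diaph3* and *Pcdh20* by position, likewise with earlier results of these data known. *Diaph3* is listed in the table under its older symbol Diap3.

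TDRD3 carries a Tudor domain, a fold that reads methylated arginines on histone tails and on RNA polymerase II, and it has no enzymatic activity of its own. It holds TOP3B, a topoisomerase that can act on RNA as well as on DNA, at transcribed genes, where the pair is known for removing the RNA-DNA hybrids called R-loops. The same pair binds FMRP, the RNA-binding protein of *Fmr1* that is lost in fragile X syndrome, and *Fxr1* and *Fxr2* encode the close relatives of FMRP. *Diaph3* encodes a formin that nucleates actin filaments and acts in cytokinesis, and *Pcdh20* encodes a protocadherin, a cell adhesion protein.

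The 12 libraries fall into 4 groups of 3: female wild-type (WT) MEFs, female *Firre* KO MEFs, male WT MEFs and male *Firre* KO MEFs. MEFs were prepared from single mid-gestation embryos without head, limbs and viscera, and were used at low passage without further treatment. The KO mouse lacks the whole *Firre* locus on chromosome X through recombination between inserted loxP sites, and the WT groups carry the intact locus. The sources used here do not say which embryo each library came from, so a p-value measures the spread between these libraries only. The Hi-C data are from WT C2C12 cells, a mouse myoblast line, with both replicates pooled.

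Library totals ran from 42986516 to 51481034 expected counts in female and from 51521907 to 65454660 in male MEFs. *Firre*, which the table lists as 6720401G13Rik, had 90 to 129 counts in female WT and 239 to 307 in male WT libraries, and 0 counts in all 6 KO libraries. All 12 fibroblast markers were found, at a summed 16400 to 24100 CPM (counts scaled to the same library size). Markers of macrophages summed to 41.1 to 129 CPM in female and 8.75 to 17.6 CPM in male libraries, with all 10 of 10 above the filter on low counts. In such bulk libraries, fewer cells of a type and less RNA per cell cannot be told apart.

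*Tdrd3* (ENSMUSG00000022019.8) lies at chr14:87816390-87945315 of the mouse build mm9 on the plus strand, with 16 exon blocks. *Diaph3* lies on the minus strand at chr14:87055174-87541031, so both genes point away from the interval between them, and their start sites are 275.4 kb apart. *Pcdh20* lies on the minus strand on the other side, at chr14:88864554-88871203, with its start site 1054.8 kb from that of *Tdrd3*. The 250 bases before each start site are shown because the chromosome 14 genes share a neighbourhood but differed in their promoters and in their values. The sequences are those of RefSeq (build GRCm38.p6), and each was found once in mm9, ending at the base before the start site that the annotation of the count table gives. Capitals mark every CCAAT box (CCAAT) and GC box (GGGCGG), on either strand, overlapping matches included.
Tdrd3, chr14:87816140-87816389, plus strand: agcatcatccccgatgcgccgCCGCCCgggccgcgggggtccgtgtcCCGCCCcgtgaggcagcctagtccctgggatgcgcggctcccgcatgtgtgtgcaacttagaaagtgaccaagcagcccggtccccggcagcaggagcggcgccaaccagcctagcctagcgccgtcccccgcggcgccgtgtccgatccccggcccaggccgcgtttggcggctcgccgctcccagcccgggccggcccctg
Diaph3, chr14:87541032-87541281, minus strand: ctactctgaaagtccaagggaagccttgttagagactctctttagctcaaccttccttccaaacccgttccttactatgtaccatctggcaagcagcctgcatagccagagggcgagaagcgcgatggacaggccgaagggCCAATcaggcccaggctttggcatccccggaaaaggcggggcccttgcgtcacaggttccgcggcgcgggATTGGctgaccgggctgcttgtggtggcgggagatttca
Pcdh20, chr14:88871204-88871453, minus strand: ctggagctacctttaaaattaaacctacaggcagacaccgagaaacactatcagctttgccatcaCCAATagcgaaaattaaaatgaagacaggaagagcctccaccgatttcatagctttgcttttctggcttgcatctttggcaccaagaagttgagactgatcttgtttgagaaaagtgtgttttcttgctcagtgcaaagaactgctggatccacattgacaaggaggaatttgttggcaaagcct

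The *Tdrd3* stretch is 75.2% G and C with 32 CpG dinucleotides, more than 95.4% of the 32841 RefSeq promoter stretches of this length. That of *Diaph3* is 58.8% G and C with 14 CpG, and that of *Pcdh20* 42.4% with 3 CpG, against a median of 52.4% and 6 CpG over all stretches. *Tdrd3* has 2 GC boxes and no CCAAT box, *Diaph3* has 2 CCAAT boxes and no GC box, and *Pcdh20* has 1 CCAAT box and no GC box. A CCAAT box is found in 33.9% and a GC box in 32.7% of all stretches. The *Fxr1* stretch is the richest of the 7, at 80% G and C with 40 CpG and 7 GC boxes, in part overlapping. *Fmr1* has 2 GC boxes with 21 CpG and *Fxr2* 2 with 26 CpG, while *Top3b* has 7 CpG, 1 CCAAT box and no GC box. A TATA box (TATAAA, in 12.4% of all stretches) was found in none of the 7. An E-box (CACGTG, in 6.02%) was found once, in *Fmr1*. The site of the factor NRF1 (in 3.74%) was found once in *Fmr1* and 2 times in *Fxr2*. No motif searched was found in all 7 genes.

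*Tdrd3* RNA was higher in female *Firre* KO than in female WT MEFs and nearly level between the genotypes in male MEFs. The female WT libraries held 23.5, 22.7 and 22.4 CPM, a mean of 22.9 ± 0.566 (SD, n = 3). The female KO libraries held 34.2, 33.6 and 34.4 CPM, a mean of 34.1 ± 0.418 (SD, n = 3). All 3 KO libraries lay above all 3 WT libraries, a separation that the choice of *Tdrd3* from this contrast favours. Female KO and WT libraries did not overlap, in either direction, for 19.1% of all genes tested. The fitted fold was 1.49, which is a log2 fold change of 0.57 (SE 0.05). Of the genes tested, 731 (4.75%) had a larger absolute log2 fold change in this comparison.

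Some markers of other cells also differed in mean level between these female groups. The basal keratins *Krt5* (5.87 CPM in WT, 0.538 in KO) and *Krt14* (8.55 and 1.51 CPM), the epithelial cadherin *Cdh1* (1.87 and 0.481 CPM) and the matrix proteoglycan *Lum* (7.56 and 1.80 CPM), of the fibroblast list, had lower means in KO. They were chosen after their values were seen. None of the 7 epithelial or 12 fibroblast markers passed an adjusted p under 0.05 by edgeR (smallest 0.497 and 0.351). The summed epithelial markers ran from 74.6 to 129 CPM in WT and from 76.1 to 81.6 CPM in KO, and the summed macrophage markers from 52.0 to 93.2 and from 41.1 to 129 CPM, both overlapping. The part of these markers in the *Tdrd3* difference was not tested.

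In male MEFs the WT libraries held 26.1, 24.7 and 23.0 CPM of *Tdrd3* and the KO libraries 25.0, 25.5 and 24.6 CPM. The 2 groups overlapped, and the log2 fold change was 0.03 (SE 0.05). Without male WT replicate 3 it was -0.02, and without male WT replicate 1 it was 0.07. The female log2 fold change exceeded the male by 0.55 (SE 0.07). Female KO was thus the group that stood apart: the other 9 libraries lay between 22.4 and 26.1 CPM. Raw counts of *Tdrd3* were between 1005 and 1656 per library, where counting error alone is 3.15% to 2.46% of the value. All were whole numbers in the deposited table, with no fractional assignment of reads.

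**Figure D1:**
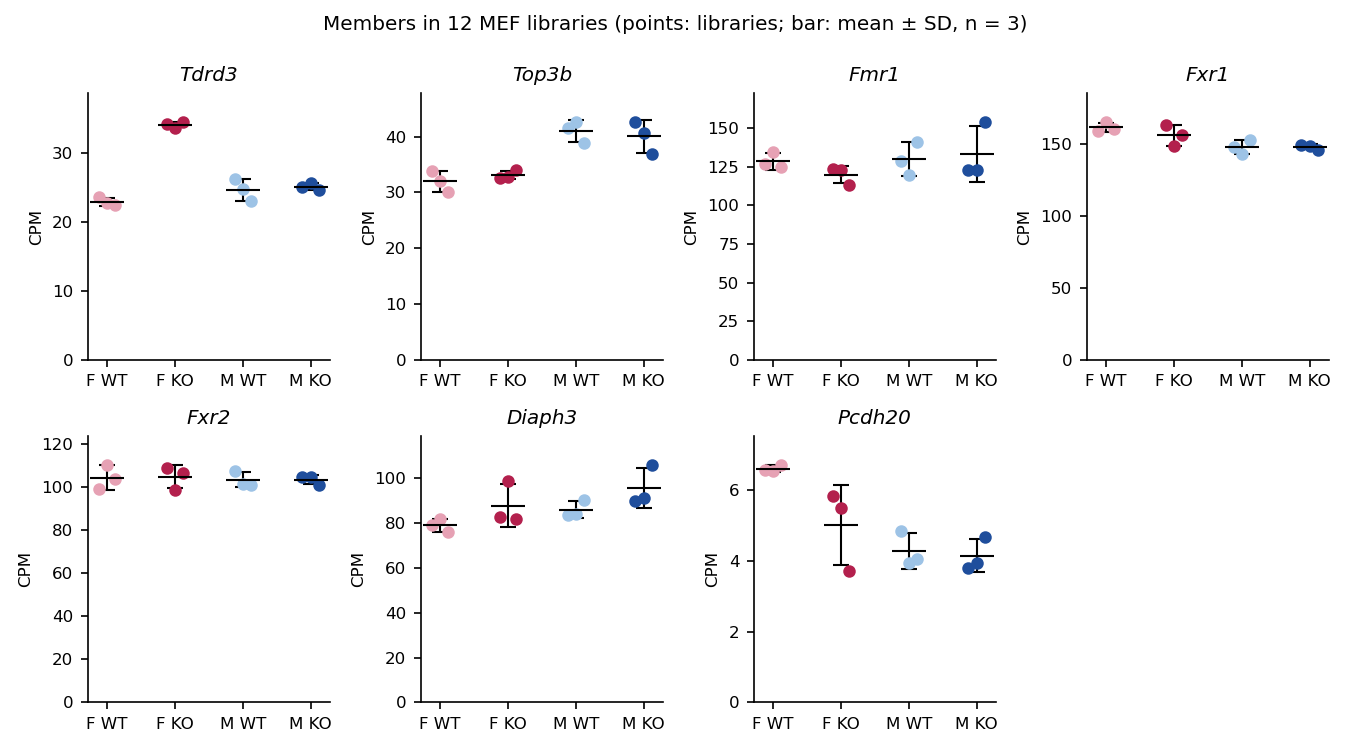
Level of each of the 7 genes in CPM (vertical axis, from 0) in female (F) and male (M) WT and Firre KO MEFs, with points for libraries and bars for the mean ± SD (n = 3). Tdrd3 in female KO stands at 33.6 to 34.4 CPM, above the 22.4 to 26.1 CPM of the other 9 libraries, while of the other genes Pcdh20, Fmr1 and Diaph3 have female KO and WT points that do not overlap (for Pcdh20, 3.72 to 5.84 CPM in KO and 6.54 to 6.72 CPM in WT).

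*Top3b*, the topoisomerase that TDRD3 holds, did not pass the test in either sex. Female WT libraries held 33.9, 32.0 and 30.1 CPM and female KO libraries 32.5, 32.8 and 34.0 CPM. The groups overlapped, and the log2 fold change was 0.05 (SE 0.06, adjusted p = 0.899 by edgeR's quasi-likelihood test over all genes tested), with a 95% interval of -0.09 to 0.19. In male MEFs the libraries held 41.5, 42.5 and 38.8 CPM in WT and 42.6, 40.7 and 36.8 CPM in KO, again overlapping, with a log2 fold change of -0.03 (SE 0.06, adjusted p = 1).

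Levels of the partners can be compared between genes per exon length, as approximate TPM (counts per base of merged exon, scaled to the same total in every library). On that scale *Tdrd3* and *Top3b* were close in the female WT libraries, with *Tdrd3* at 0.99 to 1.06 times *Top3b* and a mean ratio of 1.02 ± 0.0351 (SD, n = 3). In female KO the ratio was 1.47 ± 0.0265, in male WT 0.859 ± 0.0356 and in male KO 0.898 ± 0.0585 (SD, n = 3 each). *Top3b*, the denominator, was at 10.3 to 11.4 TPM in female WT and 10.8 to 11.2 TPM in female KO. The level of all these ratios depends on the merged exon lengths, 5834 bases for *Tdrd3* and 8340 for *Top3b*. *Top3b* shares 108 exon bases (1.29% of its exon length) with *Vpreb1* on the opposite strand, and reads from there are uncertain.

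*Fmr1*, on chromosome X as *Firre* is, was the FMRP family member with the largest female difference, and it pointed downward. Female WT libraries held 127, 135 and 125 CPM and female KO libraries 123, 123 and 113 CPM. The groups did not overlap, but the gap was small beside their spread, and the log2 fold change was -0.10 (SE 0.09, adjusted p = 0.82). In male MEFs the values were 129, 120 and 141 CPM in WT and 123, 123 and 154 CPM in KO. Replicate 3 was the highest library of both male groups, and the log2 fold change was 0.04 (SE 0.09, adjusted p = 1). *Fmr1* was near level between female and male WT MEFs, with a log2 difference of -0.01 (95% interval -0.21 to 0.18, adjusted p = 0.918).

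*Fxr1* and *Fxr2*, which bind RNA as FMRP does and can pair with it, did not pass the test in either sex. *Fxr1* held 159, 166 and 161 CPM in female WT and 163, 149 and 157 CPM in female KO, with a log2 fold change of -0.05 (SE 0.04, adjusted p = 0.798). Its male libraries held 148, 143 and 153 CPM in WT and 149, 149 and 146 CPM in KO, and the 95% interval of the male log2 fold change was -0.09 to 0.09. *Fxr1* shares 178 exon bases with *Dnajc19* on the opposite strand (7.38% of its exon length). Whether the counting used strand is not given in the sources used here, so reads from that stretch are uncertain.

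*Fxr2* held 99.2, 111 and 104 CPM in female WT and 109, 98.9 and 107 CPM in female KO, fully interleaved. Its male libraries held 107.5, 101.6 and 101.3 CPM in WT and 105, 105 and 101 CPM in KO. The log2 fold change was 0.01 (SE 0.05, adjusted p = 0.99) in female and 0.00 (SE 0.05, adjusted p = 1) in male MEFs. Summed over the 3 genes, the FMRP family stood at 298 to 313 TPM in female WT, 279.7 to 305.8 in female KO, 283.1 to 305.5 in male WT and 292.4 to 308.4 in male KO. These ranges overlap between the genotypes of each sex.

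*Diaph3*, the nearest tested gene to *Tdrd3*, was somewhat higher in KO in both sexes, with neither difference past the test. Female WT libraries held 79.1, 81.8 and 76.2 CPM and female KO libraries 82.7, 98.8 and 81.8 CPM. The lowest KO library (81.82 CPM) lay just above the highest WT library (81.75 CPM), and replicate 2 of the KO stood apart. Male WT libraries held 83.5, 84.2 and 90.3 CPM and male KO libraries 89.9, 91.3 and 106 CPM, with an overlap of 1 library on each side. The log2 fold change was 0.15 (SE 0.08) in both sexes, with adjusted p = 0.698 in female and 1 in male MEFs. Averaged over the sexes it was 0.15 (SE 0.06, unadjusted p = 0.0207, adjusted p = 0.769), and every number-matched KO library exceeded its male WT partner.

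The KO library with the most *Diaph3* in each sex was also the one with the highest cell cycle markers. The 12 markers (among them *Mki67*, *Top2a* and *Ccnb1*) summed to 1840.9 CPM in female KO replicate 2, against 1517 to 1628.9 CPM in the other 5 female libraries. They summed to 2024.6 CPM in male KO replicate 3, against 1454.3 to 1663.1 CPM in the other 5 male libraries. Without female KO replicate 2 the female log2 fold change of *Diaph3* was 0.06, and without male KO replicate 3 the male value was 0.08, with its partner, the highest male WT library, kept in. With the replicate number as a block, the male value over all 3 pairs was 0.15. All 12 markers had a higher fitted level in KO than in WT in both sexes, with a median log2 fold change of 0.13 in each. The medians over all genes tested were -3e-04 in female and -0.0041 in male MEFs. None of the 12 passed an adjusted p under 0.05 by edgeR, against 0.013% and 0.0065% of all genes. The part of the cell cycle markers in the *Diaph3* values was not tested.

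*Pcdh20*, the nearest tested gene on the other side, was low throughout and lower in female KO than in female WT by a margin that did not pass the test. Female WT libraries held 6.57, 6.54 and 6.72 CPM, a narrow range, and female KO libraries 5.84, 5.49 and 3.72 CPM. The groups did not overlap, and the log2 fold change was -0.40 (SE 0.16, unadjusted p = 0.0281, adjusted p = 0.602). Without female KO replicate 3, which had 168 counts, it was -0.22. Male WT libraries held 4.86, 3.94 and 4.07 CPM and male KO libraries 3.81, 3.95 and 4.68 CPM, which overlapped, with a log2 fold change of -0.05 (SE 0.16, adjusted p = 1). The difference between the sexes was -0.35 (SE 0.22, adjusted p = 1), and -0.17 without female KO replicate 3. Counts of 168 to 357 per library leave a counting error of 7.71% to 5.29%, the largest of the 7 genes.

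**Figure D2:**
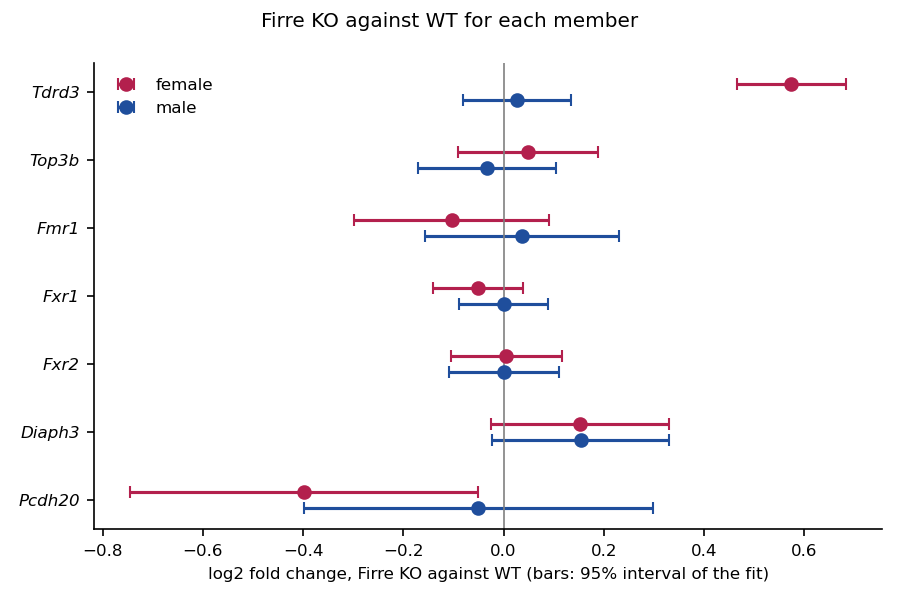
Log2 fold change of Firre KO against WT (horizontal axis) for each gene in female (red) and male (blue) MEFs, with bars for the 95% interval of the edgeR fit. The female Tdrd3 point, at 0.57, is a description of the gene chosen for this contrast, and of the other 6 genes only the female Pcdh20 interval, -0.75 to -0.05, leaves out 0 before adjustment.

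Counted together, 0 of the 6 genes other than *Tdrd3* passed an adjusted p under 0.05 for KO against WT in female MEFs by edgeR, and 0 by DESeq2. At an unadjusted p under 0.05 the edgeR count was 1 of 6, *Pcdh20*, where 7.55% of all genes tested lay under that limit. Over all genes tested, 2 (0.013%) passed in female MEFs, a count given as background only, since *Tdrd3* was chosen from this contrast. In male MEFs 0 of the 6 passed by either tool and, without a replicate block, 0 had an unadjusted p under 0.05, where 1 gene in all (0.0065%), *Firre*, passed and 2.06% lay under the unadjusted limit. At the stricter limits of the study, 1 gene passed in male MEFs, and 0 with the replicate number as a block. A fit of the male libraries alone with that block was added after the data were seen. The share of all genes under the unadjusted limit was not counted for it, so its count has no background. In that fit 1 of the 6 lay under the limit. This was *Diaph3*, with a log2 fold change of 0.15 (unadjusted p = 0.0123, adjusted p = 1 by edgeR). The female KO and WT libraries did not overlap for 3 of the 6 (*Diaph3* above, *Fmr1* and *Pcdh20* below), against 19.1% of all genes tested, and the male ones for 0 of the 6, against 5.29%. For the mean of both sexes 0 of the 6 passed, where 3 genes in all (0.0195%) did, and 1 of 6, *Diaph3*, had an unadjusted p under 0.05, where 6.24% of all genes did. For the difference between the sexes in the KO effect, 0 of the 6 and 0 of all genes (0%) passed by edgeR, with 0 of the 6 and 3.19% of all genes at an unadjusted p under 0.05. At the stricter limits of the study the count over all genes was 0 by edgeR and 2 by DESeq2.

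Many more genes differed between the female and male lines than between the genotypes. In WT MEFs 5953 genes (38.7%) passed an adjusted p under 0.05, and 3 of the 6 were among them. At an unadjusted p under 0.05 it was also 3 of 6, against 47.8% of all genes. The female and male WT libraries did not overlap for 4 of the 6, against 51.9%. In KO MEFs 5949 genes (38.7%) passed, with 18.9% of all genes higher and 19.7% lower in female, and 1 of the 6 was among them. That 1 gene, *Top3b*, was also the only one of the 6 at an unadjusted p under 0.05 (47.9% of all genes) and without overlap (50.2%). At the stricter limits of the study (adjusted p below 0.01 with more than 1 log2 unit of difference), 0 of the 6 passed, against 4.54% of all genes in WT and 3.89% in KO.

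*Top3b* was lower in female than in male WT by 0.36 on the log2 scale (log2 difference -0.36, SE 0.06, adjusted p = 0.00142) and in KO as well (-0.27, SE 0.06, adjusted p = 0.00603). Its 6 female libraries (30.1 to 34.0 CPM) and 6 male libraries (36.8 to 42.6 CPM) did not overlap. No share of all genes was counted for such pooled ranges, and within a genotype 51.9% (WT) and 50.2% (KO) of all genes did not overlap. *Pcdh20* was higher in female WT (log2 difference 0.62, SE 0.16, adjusted p = 0.00981), and its difference in KO was 0.28 (SE 0.16, adjusted p = 0.192), or 0.45 (adjusted p = 0.0213) without female KO replicate 3 and 0.15 (adjusted p = 0.528) without female KO replicate 1. *Fxr1* was higher in female WT by 0.13 (SE 0.04, adjusted p = 0.028). The *Fxr1* call was lost without a filter on low counts (adjusted p = 0.0931) and without female WT replicate 2 (0.101), female WT replicate 3 (0.0594), male WT replicate 1 (0.0746) or male WT replicate 2 (0.103). Markers of other cells differed between the lines as well. Macrophage markers were higher in female at an adjusted p under 0.05 for 9 of 10 in WT and 10 of 10 in KO, and epithelial markers for 7 of 7 in WT and 2 of 7 in KO. Of the markers tested, muscle had 4 of 7 higher in WT and 5 of 7 in KO, neural cells 3 of 7 in both (with 1 lower in KO) and endothelium 3 of 5 in WT and 1 of 5 in KO. Some markers passed the filter on low counts only through the female libraries. Examples are *Myod1* and *Mymk* of the muscle list, at 0.523 and 0.874 CPM in female WT and 0.0675 and 0.078 CPM in male WT. For such markers a higher female level was largely fixed by the filter. Of the 12 fibroblast markers 1 was higher and 3 lower in WT, and 2 higher and 3 lower in KO. The part of these in the member differences was not tested.

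Ranked by TPM over the 12 libraries, *Fxr1* was the most abundant, at a median of 178.1 (168.7 to 190.6), followed by *Fxr2* at 78.7 (72.3 to 81.3). *Diaph3*, at 49.2 (45.0 to 64.6), and *Fmr1*, at 39.2 (34.6 to 50.7), overlapped in range. *Tdrd3*, at 12.3 (10.8 to 16.2), and *Top3b*, at 12.2 (10.3 to 14.5), overlapped too, and *Pcdh20* was last at 2.64 (1.94 to 3.67). Of the complex, the scaffold and its topoisomerase were thus at the low end and the FMRP family above them. The sizes of these gaps depend on the merged exon lengths, such as 2413 bases for *Fxr1* and 8966 for *Fmr1*. In CPM, the female WT means of these 2 genes were 161.9 and 128.7.

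Whether the other genes follow *Tdrd3* from library to library is reported for the 6 male libraries only. In the female libraries *Tdrd3* formed separate clusters by genotype, within which it hardly varied (22.4 to 23.5 and 33.6 to 34.4 CPM). The 6 female relations were put through the same test only to enter the adjustment, and their results are not reported. The male adjusted p-values therefore depend on them. Among the male libraries, 0 of 6 relations passed after adjustment over the 12 relations planned for both sexes. The test exchanges the 6 libraries freely and takes account of neither genotype nor the pairing of the male replicate numbers, so its p-values are approximate here. *Fxr2* came nearest, with Pearson's r = 0.79 (exact permutation test, two-sided, p = 0.05, adjusted p = 0.2) and Spearman's rho = 0.94 (exact p = 0.0167, adjusted p = 0.2), and with r = 0.90 without the 2 libraries farthest from the median of *Tdrd3*. *Top3b* had r = 0.45 (exact p = 0.375, adjusted 0.507) and rho = 0.49 (exact p = 0.356, adjusted 0.559), with r = 0.31 without those 2 libraries. *Fmr1* had r = -0.46 (exact p = 0.381, adjusted 0.507) and rho = -0.43 (exact p = 0.419, adjusted 0.559), with r = -0.50 without them. The relation with *Fxr1*, r = -0.46 (exact p = 0.362, adjusted 0.507) and rho = -0.14 (exact p = 0.803, adjusted 0.963), turned to r = 0.73 without them and so rests on those libraries.

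The relations with both neighbours were smaller in size than that of *Fxr2*. *Diaph3* had r = -0.25 (exact p = 0.592, adjusted 0.645) and rho = -0.49 (exact p = 0.356, adjusted 0.559), with r = -0.27 without the 2 farthest libraries. *Pcdh20* had r = 0.30 (exact p = 0.583, adjusted 0.645) and rho = 0.09 (exact p = 0.919, adjusted 1), and r = -0.53 without them, so its sign rests on those libraries. The male values of *Tdrd3* span only 22.97 to 26.1 CPM, which leaves little range for a relation to show.

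**Figure D3:**
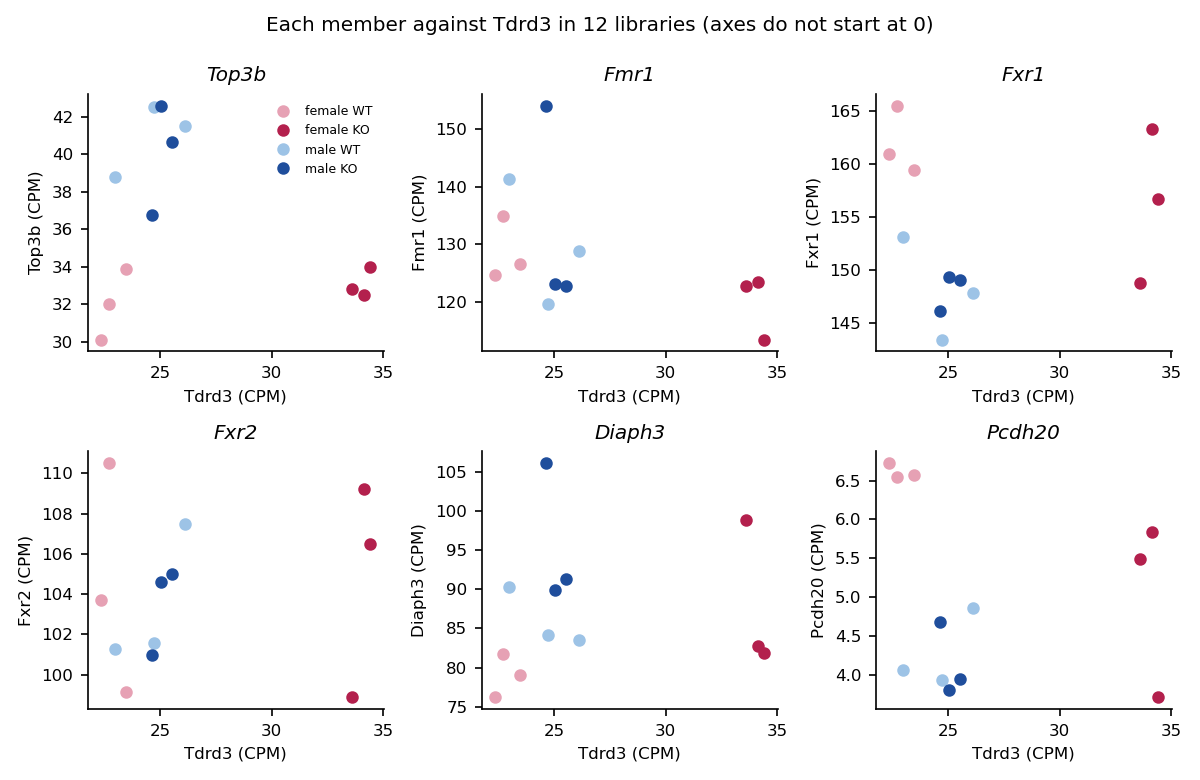
CPM of each of the other 6 genes (vertical axis) against Tdrd3 (horizontal axis) in the 12 libraries, colored by sex and genotype, with axes that do not start at 0. The 3 female KO points stand apart to the right at 33.6 to 34.4 CPM of Tdrd3, while their heights fall within or near those of the other libraries.

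The genes most and least like *Tdrd3* over the 12 libraries were picked by their likeness, so their values are a description. Likeness was measured as Pearson's r of log2(CPM + 0.5) over the 12 libraries after subtraction of the mean of each sex. The libraries of a group share their condition, and the female libraries form clusters by genotype in *Tdrd3*, on which this measure rests. The most similar were *Eif3i*, a subunit of the translation initiation factor eIF3 (r = 0.95), *Cep250*, a centrosomal linker protein (0.95), *Med12*, a Mediator subunit encoded on chromosome X (0.91), *Frrs1* (0.91) and *Fasn*, the fatty acid synthase (0.91). The least similar were *Erp44*, a chaperone of the secretory pathway (-0.95), *Birc2*, a ubiquitin ligase that inhibits apoptosis (-0.93), and *Gpcpd1* (-0.92). Their female log2 fold changes, whose signs this choice largely fixes, were 0.10 to 0.21 for the first 5 and -0.27 to -0.14 for the last 3. Among the other 6 genes this r was 0.39 for *Diaph3*, 0.36 for *Top3b*, 0.10 for *Fxr2*, -0.42 for *Fmr1*, -0.48 for *Fxr1* and -0.64 for *Pcdh20*. These values largely restate the sign of each gene's own female difference and are no measure of whether it follows *Tdrd3*.

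The stretch of chromosome 14 around *Tdrd3* is sparse in tested genes, and 0 of its tested genes beside *Tdrd3* passed for KO against WT. The 10 nearest tested genes on each side span 20.7 Mb. For KO against WT, 10 were higher and 10 lower in female MEFs, with a median log2 fold change of 0.01, against a median of -3e-04 over all genes tested. In male MEFs 13 were higher and 7 lower, with a median of 0.03, against a median of -0.0041 over all genes tested. None of the 20 passed an adjusted p under 0.05 in either sex by edgeR, and at an unadjusted p under 0.05 there was 1 in female (*Pcdh20*) and 0 in male MEFs, against 7.55% and 2.06% of all genes tested. Such counts do not set the 20 genes apart from the rest. Beyond *Diaph3* and *Pcdh20*, the next on each side were 2 other protocadherin genes. *Pcdh17*, at -2973 kb from the start of *Tdrd3*, had a log2 fold change of -0.25 (SE 0.17, adjusted p = 0.765) in female and -0.25 (SE 0.18, adjusted p = 1) in male MEFs. *Pcdh9*, at 6471.6 kb, had 0.04 (SE 0.19, adjusted p = 0.986) and -0.15 (SE 0.19, adjusted p = 1). Of the 20 genes, 6 were higher and 0 lower in female than in male WT at an adjusted p under 0.05, among them *Pcdh17* (log2 difference 1.38, SE 0.17, adjusted p = 0.000202), against 18.9% and 19.8% of all genes tested.

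**Figure D4:**
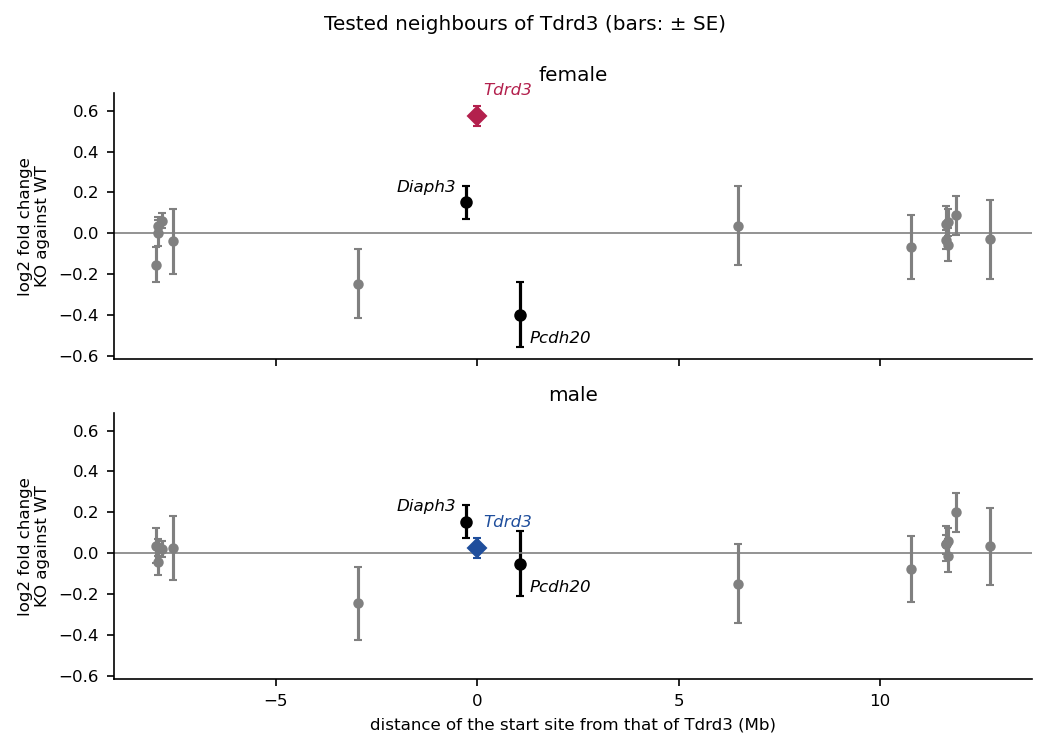
Log2 fold change of Firre KO against WT (vertical axis, bars ± SE) by distance of the start site from that of Tdrd3 in Mb (horizontal axis), for Tdrd3 (diamond) and 16 of its 20 nearest tested neighbours in female and male MEFs. The 4 neighbours with a standard error over 0.25 in either sex are not drawn, among them Lect1, whose female value of 0.66 (SE 1.56) lies above the 0.57 of Tdrd3, which none of the drawn neighbours reaches.

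C2C12 Hi-C gave a view of the same stretch in another cell type. Contact was taken as the mean of the 3 by 3 bins of 40 kb around each pair of start sites, divided by the mean on chromosome 14 at the same distance. The start sites of *Tdrd3* and *Diaph3* had 1.03 times the mean contact, higher than 59.3% of 2989 positions at that distance. The start sites of *Tdrd3* and *Pcdh20* had 2.39 times the mean, higher than 94.9% of 2972 positions, where 7 of 9 bin pairs held any contact. With bin pairs without contact left out, the value was 1.51. *Diaph3* and *Pcdh20* had 0.841 times the mean, higher than 52.1% of 2963 positions, with contact in 4 of 9 bin pairs. The single pair of bins at both starts gave 3.62 for these genes, so whether their contact lies above or below the mean depends on the bins taken. As the replicates were pooled, these ratios have no error and were not tested.

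The contact of the *Tdrd3* start was below the mean close to the gene on both sides, at 0.879 times over 80 to 280 kb toward *Diaph3* and 0.667 times toward *Pcdh20*. Over 320 to 1000 kb it was 1.13 times the mean toward *Diaph3* and 0.853 times toward *Pcdh20*. Single bins at these distances rest on few contacts and vary widely.

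**Figure D5:**
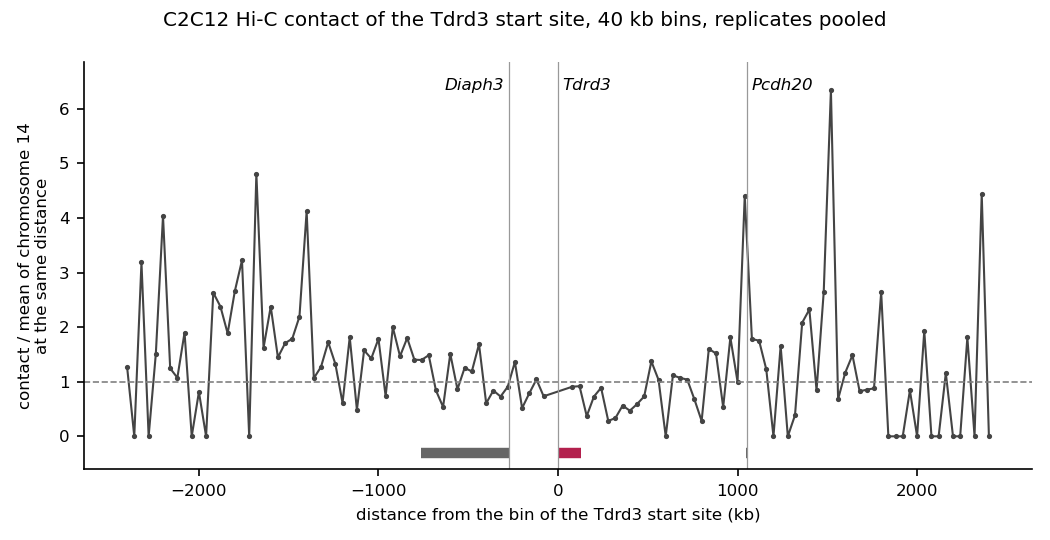
Contact of the 3 bins around the Tdrd3 start site in C2C12 Hi-C, as a ratio to the chromosome 14 mean at the same distance (vertical axis, dashed line at 1), by distance in kb (horizontal axis), with gray and red bars for the gene bodies. The ratio near the Pcdh20 start reaches 4.4 in a single bin, and bins beyond 1000 kb scatter between 0 and over 6.

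The wider pathway was examined through 6 lists of 55 genes in all, every one of them tested. For KO against WT, 0 of the 55 passed an adjusted p under 0.05 in female or in male MEFs by edgeR, and 0 for the difference between the sexes. With 0.013%, 0.0065% and 0% of all genes passing in these comparisons, the counts say nothing particular to the lists. Each list is given by the gene with the largest female difference. Among partners of FMRP it was *Cyfip2* (log2 fold change -0.29, SE 0.15, adjusted p = 0.692), and among topoisomerases and the BLM complex *Tdp1*, which repairs DNA ends blocked by a topoisomerase (0.14, SE 0.06, adjusted p = 0.646). Among stress granule proteins it was *Tia1* (-0.11, SE 0.05, adjusted p = 0.61). Among arginine methyltransferases, which make the marks that TDRD3 reads, it was *Carm1* (0.14, SE 0.05, adjusted p = 0.543). Among other Tudor domain readers it was *Snd1* (0.15, SE 0.12, adjusted p = 0.793), and among R-loop factors *Rnaseh2c*, a subunit of ribonuclease H2 (0.31, SE 0.15, adjusted p = 0.67). List medians ran from 0.02 to 0.07 in female and from -0.02 to 0.04 in male MEFs.

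Between the female and male WT lines, 12 of the 55 were higher and 11 lower at an adjusted p under 0.05, against 18.9% and 19.8% of all genes tested. Between the KO lines 17 were higher and 10 lower, against 18.9% and 19.7%. The differences named next are those between the WT lines. *Ddx3x*, an RNA helicase of chromosome X and the stress granule list, was higher in female by 0.46 (SE 0.04, adjusted p = 1.69e-05), with *Tia1* (-0.40), *Tial1* (-0.29) and *Atxn2* (-0.26) lower. Of the arginine methyltransferases *Prmt5* (0.37, adjusted p = 6.52e-05), *Prmt6* (0.47) and *Prmt1* (0.34) were higher and *Prmt2* (-0.22) lower. Among Tudor domain readers *Smn1* (0.44) and *Smndc1* (0.18) were higher and *Tdrd7* (-0.37), *Phf20* (-0.29) and *Phf20l1* (-0.18) lower. Of the FMRP partners *Cyfip2* (0.80), *Ago2* (0.20) and *Nufip1* (0.18) were higher and *Mov10* (-0.45), *Usp9x* (-0.28) and *Cyfip1* (-0.14) lower. *Rnaseh2a* (0.26) and *Dhx9* (0.29), of the R-loop list, were higher, and *Top2b* (-0.19), of the topoisomerase list, was lower. Between the KO lines *Mov10* (adjusted p = 0.0908 by edgeR), *Cyfip1* (0.132) and *Phf20* (0.086) did not pass, while the other genes named here did.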

How the data were processed

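RNA-seq of 12 MEF libraries and Hi-C of C2C12 cells were used, and the CTCF ChIP-seq samples were not analysed here. The authors mapped reads with Bowtie 2 and quantified genes with RSEM 1.2.29, and the expected counts were deposited unscaled. The Hi-C file holds an iteratively corrected contact signal in 40 kb bins, which the authors made with HiC-Pro 2.7.8 from both replicates. Both were made on mm9.

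Expected counts were rounded and tested with edgeR 4.0.16 in R 4.3.3 (quasi-likelihood F-test, TMM, filterByExpr, Benjamini-Hochberg over 15387 genes), in a single fit with a mean for each of 4 groups. Calls used an adjusted p under 0.05. The study's own limits (adjusted p below 0.01 with a change of more than 1 log2 unit) were applied as well. Between 14.7% and 16.8% of the values in a library are not whole numbers, but at most 0.0179% of the counts of any member were fractional. CPM uses TMM-scaled library sizes, and TPM uses merged exon lengths. Replicate pairs within each group differed by more than sampling noise (smallest chi-square per degree of freedom 7.42). Depth was 42986516 to 65454660 counts, and counting errors cover counting only. Scripts were tested on simulated data. Tools were Python 3.11.15, NumPy 2.4.6, SciPy 1.17.1 and matplotlib 3.10.9.

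The members and all lists were chosen with earlier results of these data known. Named were the 7 members in every library, the 2 nearest tested genes on each side, list genes with an adjusted p under 0.05 (up to 6 a list) or else the gene with the largest change, and the 5 genes most and 3 least like *Tdrd3*. 1 list gene that the rule names is counted but not reported here by name. Replicate numbers in the labels were checked for pairing: deviations of same-numbered libraries correlated at 0.205 to 0.459 between male WT and KO, so the numbers were taken to pair the male libraries, and at -0.241 to -0.132 in female MEFs, which were not paired. Alternatives were DESeq2 1.42.0, DESeq2 size factors, library size alone, no filter, at least 10 counts in every library, only the groups compared, a replicate block, each library left out, other pseudocounts and other bin blocks. The fit of male libraries alone with a block was added after the data were seen.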

Additional observations from a re-analysis of the deposited data

How the results depend on the processing

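The female log2 fold change of *Tdrd3* stayed between 0.56 and 0.59 over 19 alternatives (the male one turned to -0.0193 without male WT replicate 3). None of the KO differences of the other 6 genes passed an adjusted p under 0.05 under any of 19 alternatives in female and 20 in male MEFs (smallest 0.387). The change of threshold repeats the same fit and is not counted among these alternatives. Depth limits *Pcdh20* most. Genes past the thresholds of the study's methods numbered 1 in female, 1 in male and 1 over both sexes, with 0 for the difference between the sexes, 698 between female and male WT and 599 in KO. With DESeq2 these became 4, 4, 4 and 2 for the KO comparisons. With at least 10 counts in every library, which removes *Firre*, they became 0, 0 and 0. With only the groups compared they became 0 in female and 0 in male MEFs, and 370 between the sexes in KO. At an adjusted p under 0.05 with no fold limit they were 2 in female, 3 over both sexes, and 5953 and 5949 between the sexes. Leaving out single libraries gave 432 to 763 between female and male WT (432 without male WT replicate 1), and 329 to 621 in KO (329 without male KO replicate 1, 342 without male KO replicate 2, 376 without female KO replicate 1).

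With the replicate block, 0 genes passed in female and 0 in male MEFs, and 0 in the male libraries alone, where *Diaph3* had a log2 fold change of 0.15 (unadjusted p = 0.0123, adjusted p = 1). The paired fits changed no call of the 6 genes at an adjusted p under 0.05.

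Member differences whose sign turned all had an adjusted p of 0.691 or more and a size of at most 0.0805. They were *Fxr1* in male MEFs (DESeq2 -0.0013, DESeq2 size factors -0.0015, at least 10 counts -3e-04), *Fxr2* in male MEFs (DESeq2 -6e-04, DESeq2 size factors -6e-04), *Fxr2* in female MEFs (library size alone -0.0098, at least 10 counts -3e-04), *Fmr1* between the sexes in WT (library size alone 0.0084) and *Fxr2* there (no filter -0.002). Leaving out single libraries gave these ranges for KO against WT in male MEFs: *Top3b* -0.0803 to 0.0236, *Fmr1* -0.0805 to 0.101, *Fxr1* -0.0223 to 0.0245, *Fxr2* -0.0141 to 0.0299 and *Pcdh20* -0.145 to 0.0494. They gave *Fxr2* -0.0302 to 0.0484 in female MEFs, and *Fmr1* -0.0709 to 0.0494 and *Fxr2* -0.0306 to 0.0481 between the sexes in WT. Correlations with *Tdrd3* in male MEFs turned sign too: *Diaph3* -0.524 to 0.0233, *Pcdh20* -0.172 to 0.442 and *Fxr1* -0.697 to 0.549, the last without male WT replicate 3 (adjusted p = 0.588).

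For Hi-C, *Tdrd3* and *Diaph3* gave 1.04 with a single pair of bins, 0.715 with 5 by 5 bins and 0.964 without absent bin pairs. *Tdrd3* and *Pcdh20* gave 2.85, 2.11 and 1.51, and *Diaph3* and *Pcdh20* 3.62, 0.717 and 0.789, in the same order. The cause was not tested.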
